A study of Mus musculus with 207 samples.

Results

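The transport of salt, acid and water by the cecal epithelium was described through 9 genes, Car1, Car4, Slc26a3, Aqp8, Slc9a3, Slc9a2, Scnn1a, Guca2a and Cftr, chosen by name for their roles in surface colonocytes and crypt cells. The array carried 16 probes of these 9 genes among its 45281 probes, and all 16 were taken. RNA came from 207 mice of the incipient Collaborative Cross (CC), a breeding population derived from 8 inbred founder strains and not yet fully inbred, so mice of a line share much but not all of their genotype. Sex was labelled for 205 mice, with 3 more males than females, and the 2 others entered only the comparisons that need no sex. The labels name no treatment and no age, and the paper reports the same chow for all mice. It also describes behavioral and physiological phenotyping of members of this population. The labels do not say which of the mice used here underwent it. Cells were released from the cecum, filled with a chelating buffer, and pelleted, and their RNA was hybridized to Illumina Mouse WG-6 v2 BeadChips, with 1 array per mouse. A line was read as the first number of the animal's label, which gave 113 lines, and this reading is uncertain because no source used here states it. Both sexes were present in 92 lines (185 mice), so most lines hold a single mouse of each sex.

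The colon and cecum take up sodium chloride and water and return some chloride, bicarbonate and fluid to the lumen. At the surface, the sodium-proton exchangers encoded by Slc9a3 and Slc9a2 work beside the chloride-bicarbonate exchanger Slc26a3, and the carbonic anhydrases Car1 (cytosolic) and Car4 (membrane-anchored) interconvert carbon dioxide and bicarbonate for both. Scnn1a encodes the alpha subunit of the epithelial sodium channel, which takes up sodium alone and is regulated by aldosterone, and Aqp8 is a water channel. Cftr encodes the channel of chloride and bicarbonate secretion, activated by phosphorylation through cyclic nucleotide-dependent kinases and strongest in crypts, and Guca2a encodes guanylin, a peptide that acts through cyclic GMP to raise secretion and lower sodium uptake.

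The reference promoters of 6 members were held in the RefSeq table used (GRCm38.p6), those of Car4, Slc26a3, Aqp8, Slc9a3, Guca2a and Cftr, and 4 are printed here. Cftr is shown as the member with the strongest line effect below, Slc26a3 and Guca2a as a pair whose line means rose together, and Aqp8 as the member with the lowest unadjusted p between the sexes. Each is the 250 bases before the annotated start, on the forward strand, 5′ to 3′, at chr6:18170437-18170686 for Cftr, chr12:31437969-31438218 for Slc26a3, chr4:119637482-119637731 for Guca2a and chr7:123462044-123462293 for Aqp8. Capitals mark any of 6 motifs searched on both strands, namely the TATA box in the form TATAAA, the Cdx motif in the form TTTATG, the Hnf4 motif in the form CAAAGTCCA, the Hnf1 motif in the form GTTAAT, the Gata motif in the form AGATAA and the GC box in the form GGGCGG.
Cftr: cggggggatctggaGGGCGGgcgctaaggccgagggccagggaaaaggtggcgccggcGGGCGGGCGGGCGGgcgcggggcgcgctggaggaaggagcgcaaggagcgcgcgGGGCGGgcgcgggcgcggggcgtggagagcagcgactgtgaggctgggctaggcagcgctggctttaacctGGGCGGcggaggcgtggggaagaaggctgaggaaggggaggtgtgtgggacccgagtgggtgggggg
Slc26a3: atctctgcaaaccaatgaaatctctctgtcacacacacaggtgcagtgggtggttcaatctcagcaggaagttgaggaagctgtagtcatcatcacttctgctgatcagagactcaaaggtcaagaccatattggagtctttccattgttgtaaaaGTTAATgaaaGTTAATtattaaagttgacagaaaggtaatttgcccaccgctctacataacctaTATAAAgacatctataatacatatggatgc
Guca2a: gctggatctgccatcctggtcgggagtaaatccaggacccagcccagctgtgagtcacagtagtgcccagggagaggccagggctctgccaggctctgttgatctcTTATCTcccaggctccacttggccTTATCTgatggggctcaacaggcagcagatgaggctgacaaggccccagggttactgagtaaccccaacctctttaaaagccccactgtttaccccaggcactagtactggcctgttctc
Aqp8: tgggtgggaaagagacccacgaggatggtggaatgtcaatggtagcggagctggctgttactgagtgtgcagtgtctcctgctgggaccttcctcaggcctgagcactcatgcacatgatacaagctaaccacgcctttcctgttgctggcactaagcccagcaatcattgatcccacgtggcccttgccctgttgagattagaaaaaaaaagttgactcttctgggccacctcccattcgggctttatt

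The Cftr promoter held 6 GC boxes, 3 of which overlap in 1 run, 30 CG dinucleotides and 76.4% G and C, against a median of 52.4% G and C over the 32851 promoters of the table. GC boxes were held by 32.7% of all promoters. Slc26a3, with 38.8% G and C, held a TATA box with 24 bases between it and the start, and 2 Hnf1 motifs, carried by 12.4% and 6.43% of all promoters. Guca2a held 2 Gata motifs on the reverse strand (9.99% of all promoters hold that motif). Aqp8 and Car4 held none of the 6, which says only that these letters are not in this window, and Slc9a3 held 3 GC boxes. Neither the Cdx motif (10.8% of all promoters) nor the Hnf4 motif (0.384%) occurred in any of the 6 windows.

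All values below are log2 of the deposited intensity, with intensities under 16 set to 16. A probe was called above background when its mean over mice passed 6.33, the 95th percentile of 1543 probes of odorant, vomeronasal and taste receptors, and 20322 probes did. Array medians ran between 41.5 and 103.7 on the intensity scale, and 8 arrays (6 of females, 2 of males) held values below 0. Xist, the transcript of the inactive X, and the Y-linked genes were used to check the labelled sex: 7 of 205 mice went against it by Xist, 18 by the Y-linked genes and 4 by both. Surface colonocyte markers other than the members were measured for 9 of 10 genes listed, all above background, with a list mean between 8.99 and 11.998 (median 11.38) in females and between 9.77 and 12.14 (median 11.44) in males. Smooth muscle markers were also well above background (8 of 8, list median 10.73 in females and 10.75 in males, Acta2 averaging 14.04). In such bulk RNA fewer cells of a type and less RNA per cell cannot be told apart.

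Of the 16 probes, 14 were above background. The brightest probe of each gene stands for it below, and its level is not compared with that of another gene, since probes bind with different strength. Each of the 9 brightest probes was above background in every mouse except that of Scnn1a, which was below it in 5 of 207 mice. For 5 genes other probes existed, and their values followed the brightest closely only for Aqp8, whose other probe had an r of 0.901 with it over 207 mice. The other probes of Slc9a2 had an r of 0.554 and 0.311 with the brightest, and those of Slc26a3 had 0.245 and -0.009. The Slc26a3 probe at 0.245 averaged 7.86 and was above background in every mouse. It is annotated to the RefSeq transcript of the gene, whereas the brightest probe and the remaining probe are annotated to cDNA clone records. Unless stated, results for Slc26a3 below are therefore of its brightest probe alone and may not hold for the gene. The other probes of Slc9a3 and Cftr averaged 6.06 and 6.02, under the background threshold, and had an r of 0.029 and -0.073, so for these genes a single probe carries the result.

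Among the sodium transporters, Slc9a3 (the exchanger NHE3, the main route of neutral sodium uptake) lay between 6.98 and 12.17 in females (median 9.84) and between 8.17 and 11.25 in males (median 9.85). Slc9a2 (NHE2, a second apical exchanger) lay between 7.92 and 10.95 in females (median 10.36) and between 9.19 and 11.14 in males (median 10.40). The central 90% of mice spanned 4.79-fold for Slc9a3 and 2.44-fold for Slc9a2, the narrowest of the 9. Scnn1a lay between 5.29 and 9.53 in females (median 7.69) and between 5.99 and 9.50 in males (median 7.75), and its central 90% spanned 5.14-fold. In all 3 genes the sexes overlapped and the lowest mouse was female, and for Slc9a3 and Slc9a2 it was the same single mouse, of line 810.

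Of the bicarbonate genes, Slc26a3 (DRA, whose loss causes chloride-losing diarrhea in humans) lay between 8.18 and 12.90 in females (median 11.47) and between 8.24 and 13.23 in males (median 11.48). Its central 90% of mice spanned 8.72-fold, the widest of the 9, with a long tail of low mice in both sexes. Car4 lay between 8.75 and 12.81 in females (median 11.93) and between 9.71 and 12.96 in males (median 11.98). Car1 lay between 9.42 and 15.67 in females (median 14.71) and between 9.61 and 16.16 in males (median 14.79). Car1 was even in most mice, with a central 90% of 2.99-fold, but 2 females and 1 male stood far below all others.

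Aqp8, the water channel, lay between 7.33 and 13.11 in females (median 11.99) and between 7.04 and 13.48 in males (median 12.23). Guca2a lay between 12.03 and 16.24 in females (median 14.92) and between 14.07 and 16.24 in males (median 15.02), near the top of the array's range. Cftr lay between 6.87 and 11.51 in females (median 9.66) and between 7.12 and 11.30 in males (median 9.52), and its central 90% spanned 8.27-fold. The spread of Cftr was of another kind than that of Car1 and Aqp8: in the plot of levels by sex its mice filled the whole range, whereas those of Car1 and Aqp8 were dense with a few far below.

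**Figure D1:**
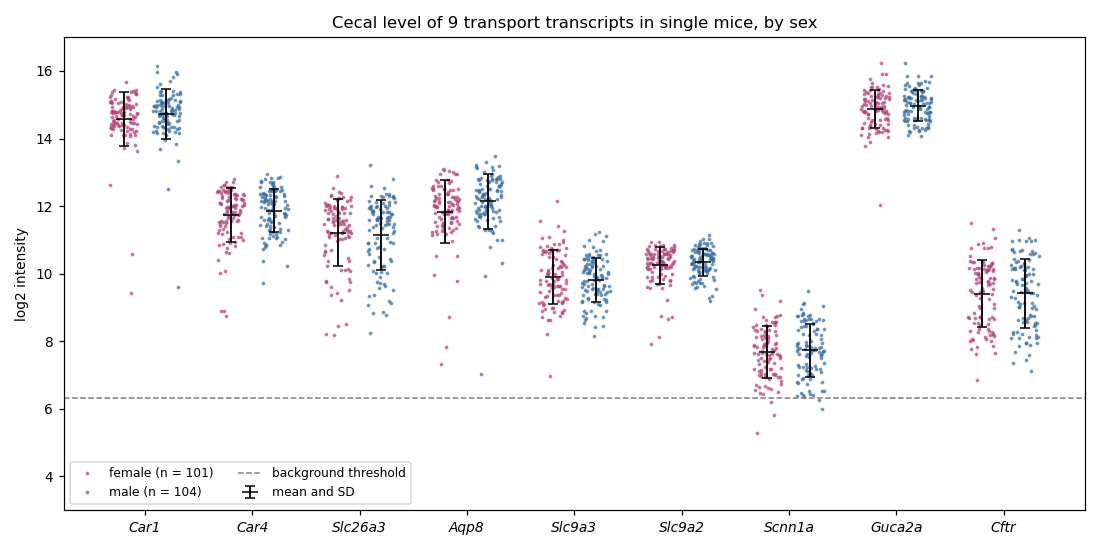
Log2 intensity of the brightest probe of each of the 9 genes in single mice, females left of males (205 mice in all), with the mean and SD as bars and the background threshold of 6.33 as a dashed line. The sexes overlap for every gene, and Slc26a3 (SD 1.02 over 207 mice), Cftr (0.99) and Aqp8 (0.88) have the widest spread.

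The 3 mice far below the rest on Car1 (9.42, 9.61 and 10.57, with 12.50 in the next) were examined singly, a choice made after their values were seen. A female of line 863 had 9.42 for Car1 and 7.33 for Aqp8, and a male of line 1234 had 9.61 for Car1 and 7.04 for Aqp8. These 2 mice also had the highest means of the small intestinal enterocyte markers (10.99 and 11.34, against a median of 7.23 and a third-highest value of 9.21 over 207 mice). In them Apoa1, an apolipoprotein of absorptive enterocytes, stood at 15.71 and 15.70, and Sis, the sucrase-isomaltase of the small intestinal brush border, at 13.61 and 14.98, while Fabp6, the ileal bile acid binding protein, was low at 5.61 and 5.998 (mean 7.99 over all mice). Of the 10 markers listed, 10 were measured and 7 were above background, with a list mean between 5.82 and 10.99 in females and between 5.57 and 11.34 in males, while Fabp2, Lct and Slc10a2 were not above background over all mice. The other mates of these lines had ordinary Car1, with 15.40 in the male of line 863 and 14.49 in the female of line 1234. A female of line 5515, on an array with values below 0, had 10.57 for Car1 and 7.84 for Aqp8 with a small intestinal list mean of 6.003. Its Sis was 9.55 (mean 8.01 over all mice), its Apoa1 8.00 (mean 8.63) and its Fabp6 7.61. Low Car1 and Aqp8 were thus not confined to the 2 mice with the highest list means. Without the first 2 mice the SD over mice was 0.59 for Car1 (0.77 with them) and 0.74 for Aqp8 (0.88 with them). The part of these markers in the low values was not tested.

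No member differed between females and males past the threshold. With limma over all probes, 16 of 45281 probes (0.0353%) had an adjusted p under 0.05, 9 higher and 7 lower in females, and 472 had an unadjusted p under 0.05. None of the 16 probes of the members was among those 16. The nearest was Aqp8, which averaged 11.84 ± 0.93 in females, against 12.15 ± 0.81 in males (SD over 205 mice in all). Its female minus male difference was -0.31 (SE 0.12, 95% interval -0.55 to -0.08, limma adjusted p = 0.9996), and the female was the higher of the line in 33 of 92 lines. Without the 8 arrays with values below 0 the difference of the brightest Aqp8 probe was -0.29. The other Aqp8 probe differed by -0.35 (SE 0.14). Before adjustment these were 2 probes of the same transcript with a limma p of 0.010 and 0.014, which does not hold over 45281 tests.

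The other members had female minus male differences between -0.15 (Car1, SE 0.11) and 0.09 (Slc9a3, SE 0.10). Their 95% intervals bound what could have been missed: the widest were -0.20 to 0.35 for Slc26a3 and -0.28 to 0.26 for Cftr, and the narrowest -0.21 to 0.05 for Slc9a2. The animal numbers fell into a low series (under 100, 116 mice) and a high series (100 and over, 90 mice), whose meaning no source used here gives. The sex difference did not differ between the series past the threshold for any probe of the table (0 of 45281, 0%, by limma, with 2260 at an unadjusted p under 0.05). For Slc26a3 the difference was -0.21 within the low series and 0.44 within the high series (interaction 0.65, SE 0.28, limma adjusted p = 0.82).

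Whether mice of a line resemble each other was asked through the line intraclass correlation (ICC), the share of the variance of sex-centred values that lies between lines, with an F-test of line over the 92 lines with both sexes. The paper states that the lines were housed apart from each other. In a line effect, shared genotype and shared housing therefore cannot be told apart. Over the array 2697 of 45281 probes (5.96%) had an adjusted p under 0.05. Among the brightest probes of named genes above background the share was 14.1% (1608 of 11407), and of the 9 members 2 passed, Cftr and Slc9a2. The median ICC was 0.119 over the 9 members, 0.079 over all probes above background and 0.038 over all probes.

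Cftr had an ICC of 0.563 (95% interval 0.408 to 0.688, F-test adjusted p = 1.69e-07). The SD between lines was 0.76 on the log2 scale and that within lines 0.67, and the female and the male lay on the same side of their sex's median in 70 of 92 lines. In line 2650, the lowest, Cftr was 8.17 in the female and 7.12 in the male, and in line 491 it was 7.64 and 7.88. Both mice of line 491 were also low in Slc26a3 (8.51 in the female and 8.24 in the male, the lowest line mean of that gene), while its Slc9a2 was the highest of all lines (10.73 in the female and 11.02 in the male). In line 618, the highest, it was 10.87 in the female and 10.71 in the male, and in line 3232 it was 10.80 and 10.72. The 5 lowest lines and the 5 highest did not overlap in any mouse, as their choice fixes, and line means ran between 7.65 and 10.79. Within the low series the ICC was 0.672 (adjusted p = 4.70e-06) and within the high series 0.445 (adjusted p = 0.044). The probe measured could lie over a founder variant, since the table precedes the authors' removal of such probes, and a difference in transcript and a difference in binding cannot be told apart here.

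Slc9a2 had an ICC of 0.310 (0.115 to 0.482, F-test adjusted p = 0.023), which did not hold everywhere. It was 0.258 without the 8 arrays with values below 0 (adjusted p = 0.062), 0.098 within the low series (adjusted p = 0.76) and 0.487 within the high series (adjusted p = 0.020). Its other probes had an ICC of 0.189 and 0.118 and were not called. In the lowest lines the mates could lie far apart: line 5515 had 8.11 in the female and 9.34 in the male, and line 810 had 7.92 in the female and 10.05 in the male. The female of line 810 was the lowest of all mice in Car4, Slc9a3, Slc9a2, Guca2a and Cftr, so that 1 array gives the low end of 5 members. Without it the ICC was 0.317 for Slc9a2 (adjusted p = 0.019) and 0.575 for Cftr, and no call of a member for line or sex changed.

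The remaining 7 members were not called. Slc9a3 (ICC 0.191) and Scnn1a (0.189) had intervals that reached just below 0, with F-test adjusted p of 0.25 and 0.26. Guca2a had 0.119, Slc26a3 0.097, Car4 0.065 and Aqp8 0.063. Car1 had -0.065 (-0.263 to 0.138), with the female and the male on the same side of the median in 42 of 92 lines, and no likeness of mates was detectable. The intervals of neighbouring members in this order overlapped throughout, and that of Cftr lay above those of Car1, Aqp8, Car4, Slc26a3, Guca2a, Slc9a3 and Scnn1a.

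**Figure D2:**
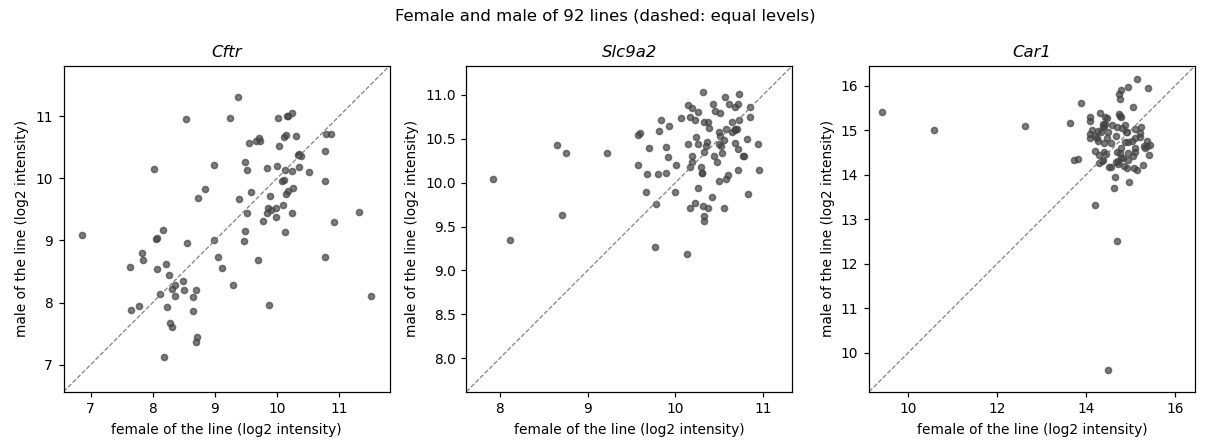
Each point is 1 of 92 lines, with the log2 intensity of the female on the horizontal axis and of the male on the vertical axis (means where a line had more mice of a sex), for Cftr, Slc9a2 and Car1, with equal levels as a dashed line. Cftr runs along the dashed line (ICC 0.563), and Car1 forms a cloud with a few single low mice (ICC -0.065).

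The other genes of these pathways were taken from a list of 54 genes by role, of which 50 were measured and 42 were above background. For line, 6 of the 42 passed, beside the background share of 14.1%, and for sex 0 passed in either direction. The 6 are near that share, so no result for the pathways as a whole is read from them. They were genes of the guanylin pathway and carbonic anhydrases, and as for Cftr their probes could lie over founder variants. Of 4 measured guanylin pathway genes 3 passed: Prkg2, the cyclic GMP-dependent kinase that acts on Cftr (ICC 0.530), Pde5a, which breaks down cyclic GMP (0.373), and Guca2b, which encodes uroguanylin (0.362), while the receptor Gucy2c had 0.101 and guanylin itself 0.119. Of 8 carbonic anhydrases 3 passed: Car13 (0.455), Car9 (0.411) and Car2 (0.342). Car13, Car1, Car3 and Car2 follow each other on chromosome 3 with 0 protein-coding genes between them in the reference table, and of these Car1 (ICC -0.065) and Car3 (0.165) did not pass. None of the 11 sodium absorption genes passed, among them Scnn1b, a channel subunit that works with Scnn1a (0.269, F-test adjusted p = 0.065), Sgk1, the aldosterone-induced kinase (0.067) and Nedd4l, the ligase that removes the channel from the membrane (0.041). None of the 9 chloride secretion genes passed, among them the basolateral chloride loader Slc12a2 (0.043). The calcium-activated channel Ano1 (0.280, F-test adjusted p = 0.0502) and Vipr1 (0.279, F-test adjusted p = 0.0518) lay just past the threshold.

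**Figure D3:**
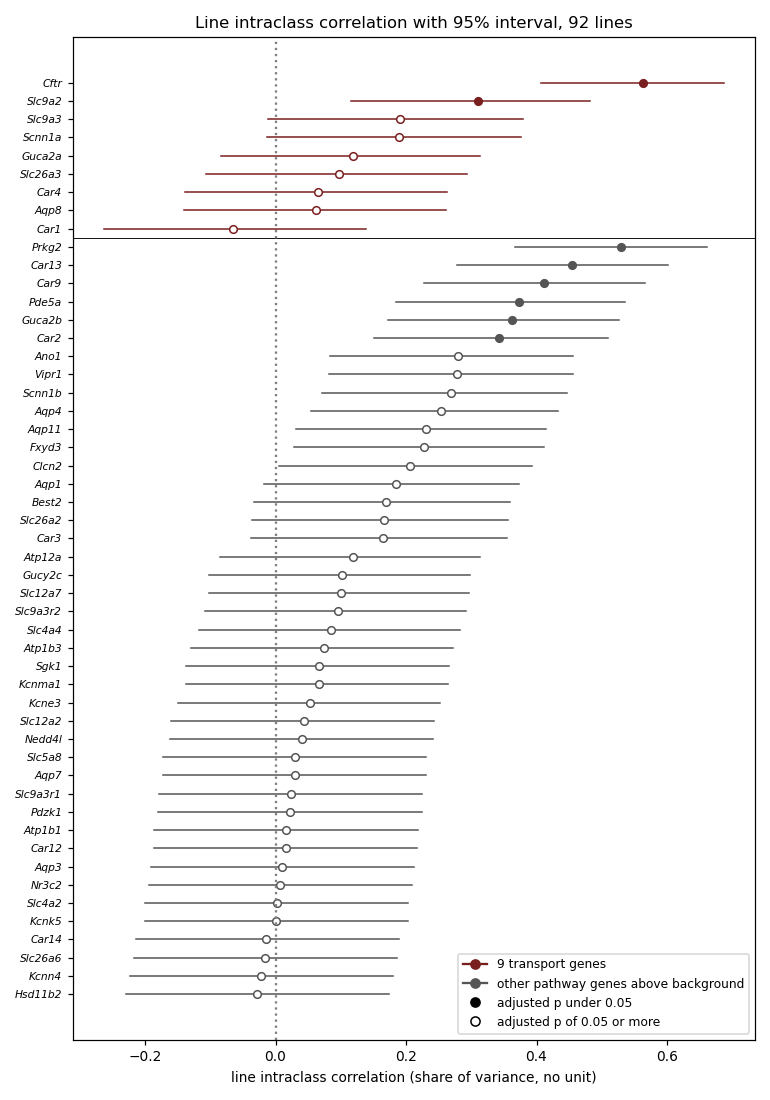
Line ICC of the 9 genes (top, dark red) and of 42 other pathway genes above background (grey), each with its 95% interval over 92 lines. Filled points have an F-test adjusted p under 0.05 over all probes, as for Cftr (0.563), Slc9a2 (0.310) and Prkg2 (0.530).

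Whether the members moved together was asked over the means of the 113 lines. Of 36 pairs, 12 had a permutation p (100000 resamples, two-sided) under 0.05 after Benjamini-Hochberg adjustment, 9 positive and 3 negative. Neither Cftr nor Slc9a3 was in any of the 12. The smallest p that these permutations can give is 1e-05 before adjustment, and the r of a pair is given with its permutation adjusted p. By rho, 10 of the 12 passed as well, and Car1 with Aqp8 and Car1 with Slc9a2 did not.

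The positive pairs joined Car1, Aqp8, Slc9a2, Car4 and Scnn1a in a chain. Aqp8 and Slc9a2 had r = 0.496 (adjusted p = 7.2e-05, rho = 0.370, rho adjusted p = 0.00042), with 0.407 within the low series and 0.573 within the high series, and r = 0.448 without the 2 lines farthest on Aqp8. Car4 and Scnn1a had r = 0.452 (adjusted p = 7.2e-05, rho = 0.460, rho adjusted p = 0.00012), with 0.515 and 0.357 within the low and the high series, and 0.457 without the 2 farthest lines. Car4 went with Aqp8 at r = 0.368 (adjusted p = 0.000495, rho = 0.352) and with Slc9a2 at r = 0.345 (adjusted p = 0.00064, rho = 0.265). With 10 principal components removed Car4 with Scnn1a had 0.102 (adjusted p = 0.58), Car4 with Slc9a2 0.143 (adjusted p = 0.40) and Aqp8 with Slc9a2 0.234 (adjusted p = 0.051), so these 3 were no longer called. The pairs above kept their sign in both series, and in the low series Car4 with Aqp8 (0.303, adjusted p = 0.065) and Car4 with Slc9a2 (0.227, adjusted p = 0.19) did not pass.

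Car1 and Aqp8 had the highest r, 0.525 (adjusted p = 7.2e-05), but a rho of only 0.164 (permutation p = 0.082, adjusted p = 0.18). Without the 2 lines farthest on Car1, r was 0.285, and without the 2 mice high in small intestinal markers it was 0.277 (adjusted p = 0.011), so the size of this relation rests on those mice. Car1 and Slc9a2 had r = 0.320 (adjusted p = 0.0048) with a rho of 0.065, and r was 0.158 (adjusted p = 0.18) without the arrays with values below 0 and 0.224 (adjusted p = 0.054) without those 2 mice.

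Guca2a and the brightest probe of Slc26a3 formed a second group with Car1. Car1 and Guca2a had r = 0.521 (adjusted p = 7.2e-05, rho = 0.575, rho adjusted p = 0.00012), with 0.467 within the low series, 0.564 within the high series and 0.563 without the 2 farthest lines. Slc26a3 and Guca2a had r = 0.414 (adjusted p = 0.0001, rho = 0.379), with 0.337 and 0.535 within the low and the high series. Car1 and Slc26a3 had r = 0.287 (adjusted p = 0.0079, rho = 0.316). Under quantile normalization Car1 with Guca2a kept r = 0.638. Slc26a3 with Guca2a had 0.078 (adjusted p = 0.49) there and Car1 with Slc26a3 0.072 (adjusted p = 0.52). Car1 and Guca2a both lie near the top of the array's range, with means above those of 99.96% and 99.98% of all probes. The part of this in their r was not tested.

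The 3 negative pairs were of Slc26a3 with Scnn1a, of Slc26a3 with Car4 and of Guca2a with Scnn1a. Slc26a3 and Scnn1a had r = -0.446 (adjusted p = 7.2e-05, rho = -0.400, rho adjusted p = 0.00018), with -0.4995 within the low series and -0.456 within the high series, and -0.416 without the 2 farthest lines. Slc26a3 and Car4 had r = -0.248 (adjusted p = 0.024, rho = -0.279), and -0.182 (adjusted p = 0.13) without the arrays with values below 0. Scnn1a and Guca2a had r = -0.407 (adjusted p = 0.0001, rho = -0.403), but the sign turned under quantile normalization, to 0.391 (adjusted p = 9e-05), so its direction depends on how arrays are scaled. Slc26a3 with Scnn1a stayed negative there, at -0.346, and had -0.157 (adjusted p = 0.32) with 10 principal components removed.

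Within lines, where the female is set against the male of the same line, 20 of 36 pairs passed, 11 of them among the 12. Of the 12, Car1 with Slc26a3 did not pass there (r = 0.077). The within-line r was 0.693 for Car1 with Aqp8 (0.389 without the 3 mice lowest in Car1), 0.611 for Car4 with Slc9a2, 0.581 for Car4 with Scnn1a and 0.537 for Car1 with Guca2a. Cftr, in no called pair over line means, went with Slc26a3 at r = 0.483 and with Scnn1a at -0.452 within lines. Of the 8 arrays with values below 0, 6 were of females. By their medians these arrays were higher in Cftr (10.31, against 9.56 on the others) and Slc26a3 (12.17, against 11.45). They were lower in Scnn1a (6.75, against 7.77). The within-line r was not computed without them, and their part in it was not tested. Over all 207 mice singly 21 pairs passed. Most line means average a single mouse of each sex, so r over line means also carries differences between single mice and arrays. This weighs most for members with an ICC near 0, such as Car1 (-0.065), Aqp8 (0.063) and Car4 (0.065). An r over line means is therefore not a measure of likeness between lines alone.

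**Figure D4:**
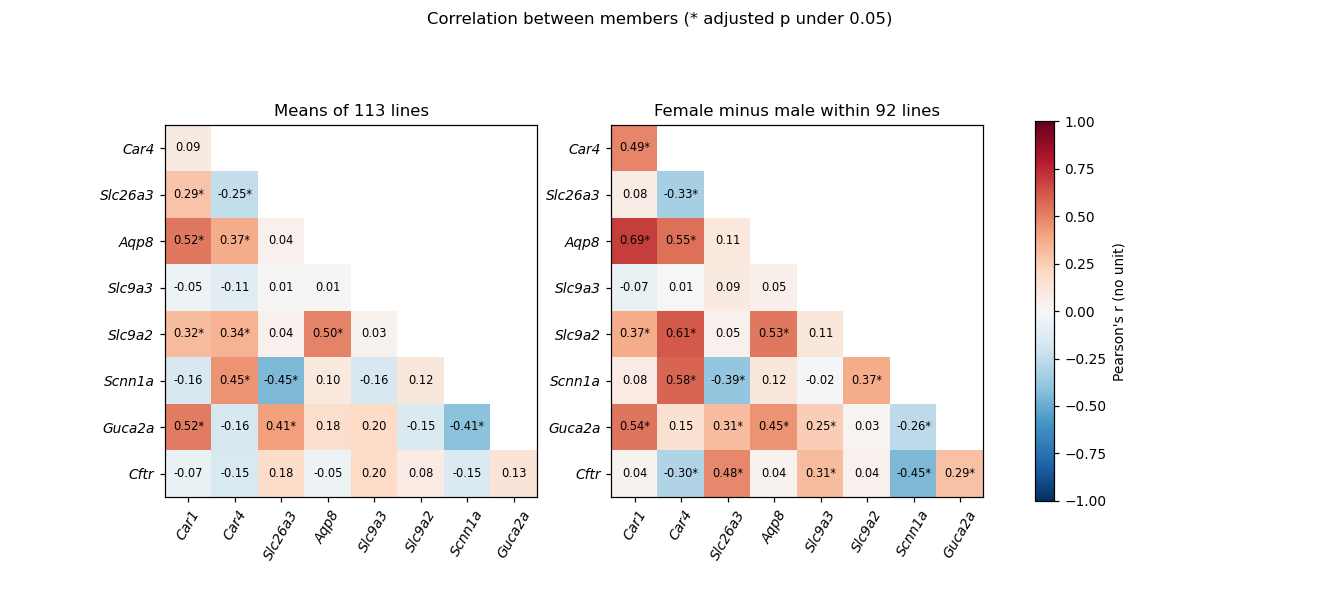
Pearson's r of the 36 pairs, over the means of all lines (left) and over female minus male differences within 92 lines (right), with an asterisk where the permutation adjusted p is under 0.05. Over line means 12 pairs are marked and Cftr has none, and within lines 20 are marked, with Cftr against Slc26a3 at 0.48.

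Markers of cell types moved with the members too. Of 108 pairs of a member and 1 of 12 marker lists, 15 passed over line means, 11 positive and 4 negative (permutation test, adjusted over the 108). Their permutation adjusted p lay between 0.00027 and 0.0371 for r, and by rho all but Car1 with smooth muscle (adjusted p = 0.31) passed too. The colonocyte list (9 of 10 markers measured, levels above) went with Car4 (r = 0.506, rho = 0.469, permutation adjusted p = 0.00027 for both), Scnn1a (0.456, rho = 0.442), Slc9a2 (0.376, rho = 0.259) and Car1 (0.335, rho = 0.250). The goblet cell list, 10 of 10 above background with a list mean between 9.45 and 12.40 in females and between 10.09 and 12.78 in males, went with Guca2a (r = 0.528, rho = 0.550, permutation adjusted p = 0.00027 for both) and Slc26a3 (0.268, rho = 0.285) and against Car4 (-0.326, rho = -0.362).

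The stem and proliferating cell list, with 8 of 10 markers measured and 7 above background, lay between 6.60 and 8.30 in females and between 6.33 and 8.53 in males, with Ascl2 not above background. It went with Scnn1a (r = 0.442, rho = 0.395) and against Guca2a (-0.369, rho = -0.367). The endothelial list (5 of 5 above background, between 5.69 and 7.75 in females and between 5.77 and 7.28 in males) went with Scnn1a (0.385, rho = 0.326) and against Guca2a (-0.338, rho = -0.398), with 0.538 within the low series and 0.083 within the high series for Scnn1a. The red cell list (3 of 5 measured, between 6.53 and 9.54 in females and between 6.66 and 10.66 in males, Alas2 not above background) went with Guca2a (0.367, rho = 0.378). Under quantile normalization 3 of these signs turned, all of Guca2a, with r = 0.165 for the stem and proliferating, 0.171 for the endothelial and -0.118 for the red cell list, and Guca2a with the goblet list had 0.132. The other signs among the 15 did not turn there. Guca2a with the colonocyte list, not among the 15, had r = -0.104 and turned to 0.574 under quantile normalization. Which of these lists Guca2a went with thus depended on how arrays are scaled. The smooth muscle list went with Car1 (0.269, rho = 0.136), the fibroblast list with Cftr (0.267, rho = 0.249), and the T and NK cell list, with Cd8a, Cd4 and Gzmb not above background, against Slc26a3 (-0.266, rho = -0.267). The part of these markers in the correlations between members was not tested.

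The genes whose pattern over the 207 mice was most like each member were named from the probes above background, by Pearson's r as a description. Car4 had r of 0.5 or more with 7.11% of those probes, Scnn1a with 6.54%, Guca2a with 4.86%, Slc9a2 with 1.83%, Slc26a3 with 1.22%, Aqp8 with 0.477%, Car1 with 0.399%, Slc9a3 with 0.0148% and Cftr with 0%. The same arrays, and so their scaling, are shared by all of these values. Among the members, the pairs at 0.5 or more over mice were Car1 with Aqp8 (0.615, and 0.266 without the 3 mice lowest in Car1), Car1 with Guca2a (0.525), Car4 with Scnn1a (0.519) and Aqp8 with Slc9a2 (0.515).

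Sdcbp2, a scaffold protein (syntenin-2), was nearest to Aqp8 (r = 0.786) and among the 3 nearest to Car1 (0.684). The nearest to Car1 were 1810065E05Rik (0.737) and Gsdmc2, a gasdermin (0.685), and beside Aqp8 stood Tst, the mitochondrial rhodanese (0.687), and Rhoc (0.655). Guca2a was closest to Uqcr10, a subunit of respiratory complex III (0.857), Bag1 (0.848) and Atpif1, an inhibitor of the mitochondrial ATP synthase (0.828). Car4 was closest to the protease gene Prss32 (0.757), Atp6v0d1, a subunit of the vacuolar proton pump (0.748), and Capzb (0.729). Scnn1a was closest to Tecr (0.763), Gprc5a (0.754) and Yipf3 (0.737), Slc9a2 to Tsg101 (0.686), Ppa2 (0.678) and B4galt1 (0.670), and Slc26a3 to Nktr (0.655), Rhbdl2 (0.636) and Nfatc3 (0.633). Slc9a3 was closest to Slc51a, a subunit of the basolateral bile acid exporter (0.528), Lrrc75a (0.500) and Herpud1 (0.498).

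For Cftr the nearest genes were 2610001J05Rik (r = 0.497), Sdhaf3, an assembly factor of succinate dehydrogenase (0.461), and Prr15 (0.427), and all 3 lie on chromosome 6, as Cftr does. A wider count was made after this was seen. Of the 50 probes most like Cftr 13 (26%) were of chromosome 6, against 5.09% of 17206 probes above background with a known chromosome. The ranks were led by them, since the first 5 were all on chromosome 6. For the other members the share of the 50 on the member's own chromosome was between 2% (Slc9a2) and 12% (Car4 and Guca2a), against 5.64% of all for Slc9a2, 8.46% for Car4 and 6.31% for Guca2a.

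Several of the 13 lie close to Cftr. Wnt2, a secreted Wnt ligand, has 1 protein-coding gene between it and Cftr, and had r = 0.370 over all mice and 0.551 without the 8 arrays with values below 0. 2610001J05Rik has 12 genes between, Bmt2 14, Tmem106b 18, Wasl 21, Mios 27, C1galt1 29 and Sdhaf3 32. Others lie far, with 92 for Cnot4 (counted by more than 1 probe), 113 for Luc7l2, 256 for Cycs and 284 for Prr15. Over line means r was 0.532 for 2610001J05Rik, 0.500 for Sdhaf3 and 0.447 for Wnt2. Some of these genes were alike within lines themselves, with an ICC of 0.618 for Sdhaf3, 0.507 for Mios and 0.472 for Cycs. That of 2610001J05Rik was 0.456 and that of Prr15 0.323. The others were not called for line, with an ICC between -0.168 (a Cnot4 probe) and 0.210 (Wnt2), and 0.017 for Tmem106b. These correlations are over related mice of shared lines and carry no test.

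**Figure D5:**
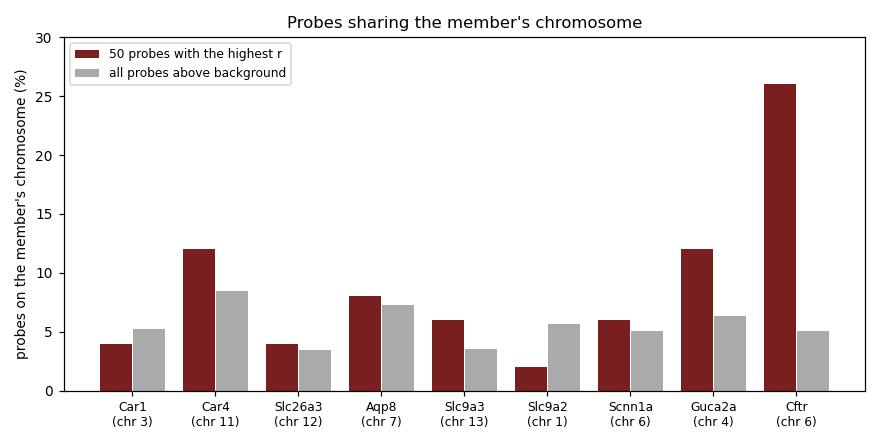
For each of the 9 genes, the percentage of the 50 probes with the highest r over 207 mice that lie on the gene's own chromosome (dark red), beside the percentage of all probes above background on that chromosome (grey). Cftr has 26% against 5.09%, and the other members lie between 2% and 12%.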

How the data were processed

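Cecal RNA of 207 mice was measured, with an array for each. Using BeadStudio (version 3.0.19 in the submitters' processing notes), the authors applied rank-invariant normalization and no background subtraction. The deposited table holds intensities of 45281 probes on a linear scale, before the authors' removal of probes over founder variants. Here the log2 of each deposited intensity was used, with 16 as the floor. Precision is limited by the number of arrays. Genes were named through the platform annotation and RefSeq gene identifiers (34885 probes with 1 gene, 18 with several, 10378 with none). Sexes were compared with limma 3.58.1 in R 4.3.3 over all probes, lines by a one-way F-test of values centred on the mean of each sex, and pairs by permutation, in Python 3.11.15 (scipy 1.17.1, numpy 2.4.6, pandas 2.3.3; plots by matplotlib 3.10.9), all with Benjamini-Hochberg adjustment and called under 0.05. Scripts were tested on simulated data.

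Named were the members, pathway genes by role, marker lists of 12 cell types and the 3 nearest genes of each member. The members and lists were chosen with earlier results of these data known. Mice of a line share ancestry, but the main comparison of the sexes was not paired by line. Line entered it only as a replicate block in an alternative. The consensus correlation within lines was 0.0396. Alternatives were a floor of 32, quantile normalization, subtraction of the 5th percentile with an offset of 16, mice or arrays left out, the number series singly, other probes, and removal of 10 principal components. Each mouse is a separate animal. No columns of per-sample values were left aside.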

Additional observations from a re-analysis of the deposited data

How the results depend on the processing

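With line as a replicate block, the number of members that differed between the sexes was 0, as without it, and it was 0 under every other alternative run. The female minus male difference changed sign for Slc26a3 within the low series (-0.21) and with the mean of all probes (-0.0104), for Guca2a within the high series (0.0228), and for Cftr under quantile normalization (0.00618), 5th percentile subtraction (0.00306), within the high series (0.0623), without mice with mismatched sex genes (0.0367), without the 2 mice highest in small intestinal markers (0.00125) and without the female of line 810 (0.0197). The last pair of alternatives was chosen after seeing the data. Over the array 16 probes differed between the sexes, 32 without the arrays with values below 0 and 8 genes with the mean of all probes. Line effects were found for 2 members, and for 1 (Cftr) with the mean of all probes, without the arrays with values below 0 and within the low series. With 10 principal components removed they were 3 (Cftr, Scnn1a at an ICC of 0.390 and Slc26a3 at 0.316), and Slc9a2 was then not called (0.210). Cftr stayed called under all 13 alternatives, at an ICC between 0.445 and 0.675. Over the array 2697 probes were called for line, 4164 under quantile normalization, 4988 without the arrays with values below 0, 8535 with components removed, 1578 within the low series, 1339 within the high series and 1487 genes with the mean of all probes. The ICC changed sign for Car1 within the high series (0.046), Slc26a3 within the low series (-0.022) and Guca2a under quantile normalization (-0.112) and with components removed (-0.015).

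The 12 called pairs became 7 within the low series (64 lines), 11 within the high series (48 lines), 21 over all mice singly and 20 within lines. Without the 2 mice highest in small intestinal markers, or the 3 lowest in Car1, 19 were called within lines, and Car1 with Slc26a3 was -0.0833 there without the 2. The female of line 810 and these 3 mice were left out after seeing the data. Quantile normalization called 17 pairs, 9 of them among the 12, and turned Scnn1a with Guca2a to 0.391. With 10 principal components removed 8 pairs were called, 4 of them among the 12, and the sign turned for Car1 with Slc9a2 (-0.026), Car4 with Slc26a3 (0.066) and Scnn1a with Guca2a (0.088). Of 19 alternatives, 19 kept the sign and the call for Car1 with Aqp8 and for Car1 with Guca2a. Only 10 kept them for Car1 with Slc9a2 and for Car1 with Slc26a3, and 13 for Car4 with Slc26a3. For each other called pair 17 or 18 did. The causes of these changes were not tested. The first component alone held 32.9% of the variance of sex-centred values.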

Other observations

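For 2 mice the labels give no usable sex. They had 13.87 and 14.26 for Car1, 11.89 and 12.47 for Car4, 11.05 and 10.44 for Slc26a3, and 12.36 and 12.40 for Aqp8. Their Guca2a was 13.56 and 14.36, below the medians of the females (14.92) and of the males (15.02), and their Scnn1a was 8.66 and 8.82, above the medians of the females (7.69) and of the males (7.75). Their Cftr was 10.32 and 9.72, within the range of both sexes.

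The 8 arrays with values below 0 stood apart in several members, by their medians. They were lower for Car4 (10.69, against 11.98 on the other arrays), Scnn1a (6.75, against 7.77) and Slc9a2 (9.72, against 10.42). Aqp8 (11.27, against 12.12) and Car1 (13.97, against 14.76) were lower too. Slc26a3 (12.17, against 11.45), Slc9a3 (10.69, against 9.84), Cftr (10.31, against 9.56) and Guca2a (15.34, against 14.94) were higher.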
